A study of Rattus norvegicus with 6 samples.

Results

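Cadherins and protocadherins, the adhesion receptors through which neighbouring cells recognise and hold each other, were followed in cultured cells of rat dorsal root ganglia kept in high glucose. The members are the rows of the mRNA table whose symbol is Cdh with a number or Pcdh with letters or digits, without Cdh5, and they came to 65 of 16551 rows. They comprised 19 cadherins, 11 protocadherins outside the gene clusters and 35 clustered protocadherins. Because 3 rows share the symbol Pcdha4, the 65 rows carry 63 symbols.

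The study compared 3 samples of a high-glucose group, titled DM, with 3 samples of a control group. Cells were taken from the ganglia between the lumbar 5 and sacral 3 levels of anaesthetised rats, dissociated with trypsin and grown in DMEM, a standard culture medium. For the high-glucose group the medium held glucose at 45 mmol/L and RNA was taken after 48 h, and how much glucose the control medium held was not stated. No sample controlled for osmolarity, the labels give no strain, age, sex or number of rats, and the reading of DM as the high-glucose group rests on the protocol text. A fixation step with paraformaldehyde stands in the growth protocol, without a statement on whether it applied to the sequenced cells. Whether the 3 samples of a group came from separate cultures or animals was not stated, so the p-values speak of the spread between these 6 samples alone, and that spread may be technical.

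Between 28780612 and 33108451 reads per sample fell on the genes of the table, in ranges that overlapped between the groups. The labels call the cells nerve cells. Reads of neuronal genes ranged widely over 18 pan-neuronal genes, from 1 in the high-glucose samples together and 7 in the control samples together for Pou4f1, a transcription factor of sensory neurons, to 4584 in high glucose and 5184 in control for Uchl1, an abundant neuronal enzyme. Rbfox3, a neuronal nuclear protein, had 9 in high glucose and 6 in control. Of these genes, 1 was higher and 9 were lower in high glucose, where 24.9% of all genes were higher and 25.5% lower. Their summed level was 95.4 to 97.7 reads per 1000000 (CPM) in high glucose and 136 to 142 CPM in control. Of 9 fibroblast markers 6 were higher, among them Lum (log2 difference 2.15) and Dcn (1.23), and 3 were lower (median 0.28). Their sum was 65846 to 69846 CPM in high glucose and 74004 to 77252 CPM in control, and the abundant Col1a1 (-0.41) and Fn1 (-0.47) were among the lower ones. In such mixed cultures, fewer cells of a type and less RNA per cell cannot be told apart.

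Cadherins bind their like on the next cell through calcium-dependent extracellular repeats. The tails of the classical type I and type II cadherins hold p120-catenin and beta-catenin, and alpha-catenin links these to the actin cytoskeleton. Protocadherins have similar repeats and other tails. In the alpha and gamma clusters a series of variable exons, each with its own promoter, is spliced to constant exons shared by the cluster, whereas each beta gene stands alone in a single exon. In mouse, combinations of clustered isoforms give single neurons an identity by which their branches recognise themselves, and CTCF and cohesin bring a distant enhancer to the chosen promoter.

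The promoters of the clustered genes are shown because genes of the same cluster carry a common short sequence there and the clustered genes that passed were all higher in high glucose. All lie on the plus strand, were taken from RefSeq promoter sequences of assembly GRCr8 and are 40-base stretches upstream of the annotated start. The beta promoters come first, with GGTGGCGCTG in capitals. Pcdhb19 and Pcdhb21 passed the test described below, Pcdhb2 and Pcdhb20 did not.
Pcdhb19 at chr18:29478759-29478798: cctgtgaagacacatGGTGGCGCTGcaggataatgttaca
Pcdhb21 at chr18:29492144-29492183: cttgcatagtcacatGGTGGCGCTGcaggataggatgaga
Pcdhb2 at chr18:29279918-29279957: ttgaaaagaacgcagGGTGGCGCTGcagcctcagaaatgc
Pcdhb20 at chr18:29485805-29485844: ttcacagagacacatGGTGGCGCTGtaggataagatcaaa

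The gamma promoters share CTCTNNNNNNCGCTG, whose fixed letters are in capitals. Pcdhga2, Pcdhga7, Pcdhga10 and Pcdhgc3 passed the test, Pcdhga3 and Pcdhga8 did not.
Pcdhga2 at chr18:29745076-29745115: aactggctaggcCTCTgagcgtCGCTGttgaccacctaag
Pcdhga7 at chr18:29794198-29794237: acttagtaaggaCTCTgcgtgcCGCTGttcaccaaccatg
Pcdhga10 at chr18:29825807-29825846: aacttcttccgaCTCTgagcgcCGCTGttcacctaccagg
Pcdhgc3 at chr18:29884059-29884098: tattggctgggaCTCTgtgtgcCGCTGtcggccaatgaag
Pcdhga3 at chr18:29750308-29750347: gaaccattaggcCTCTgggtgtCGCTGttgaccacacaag
Pcdhga8 at chr18:29804993-29805032: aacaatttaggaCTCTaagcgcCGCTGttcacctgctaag

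Promoters of 300 bases, 250 before and 50 after the start, matched 46 of the 63 member symbols. Searched on both strands, GGTGGCGCTG stood in 13 of 13 beta promoters, in 0 of 13 gamma promoters and in 0.221% of all 33469 promoters. CTCTNNNNNNCGCTG stood in 9 of 13 gamma promoters, in 0 of 13 beta promoters and in 0.368% of all promoters. Both strings end in CGCTG, which 37.0% of all promoters hold. The strings were read from these promoters: the beta string is the longest in all of them, and the gamma string is the pair of words of 4 and 5 bases, at most 10 apart, found in the most of them. Among gamma promoters of genes that passed, 5 of 8 held the longer string, against 9 of 13 gamma promoters in all. Within these windows the longer string was thus not more frequent among genes that passed. The Pcdhga1 window begins with GCTGTTCACC, which also follows the first C of CGCTG in Pcdhga7, Pcdhga10 and Pcdhga8. Whether the longer string stands across the edge of the Pcdhga1 window was not looked at. Pcdhga3 and Pcdhga8, which held the longer string, had log2 fold changes of -0.09 and 0.00. Whether either string bears on the levels was not tested.

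Log2 fold changes are differences of high glucose minus control on the deposited log2 CPM scale and are given with their standard error. P-values were adjusted over all 16551 genes in limma, and a gene passed at an adjusted p under 0.05. Of the 65 members, 21 were higher in high glucose, 11 were lower and 33 did not pass. Of the members 49.2% passed, 32.3% as higher and 16.9% as lower, and over all genes 50.5% passed, 24.9% as higher and 25.5% as lower, so the combined share was near the background. The median log2 fold change was 0.18 over the members and 0.01 over all genes. Of the 65 members, 8 passed with at least 2-fold, where 1365 of 16551 genes (8.25%) did so. Of the 32 members that passed, 17 differed by less than 1.5-fold, against 5706 of the 8354 genes that passed. All 3 high-glucose samples lay above all 3 control samples for 25 members and below them for 15, against 28.7% and 28.9% of all genes, or 57.6% in either direction.

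**Figure D1:**
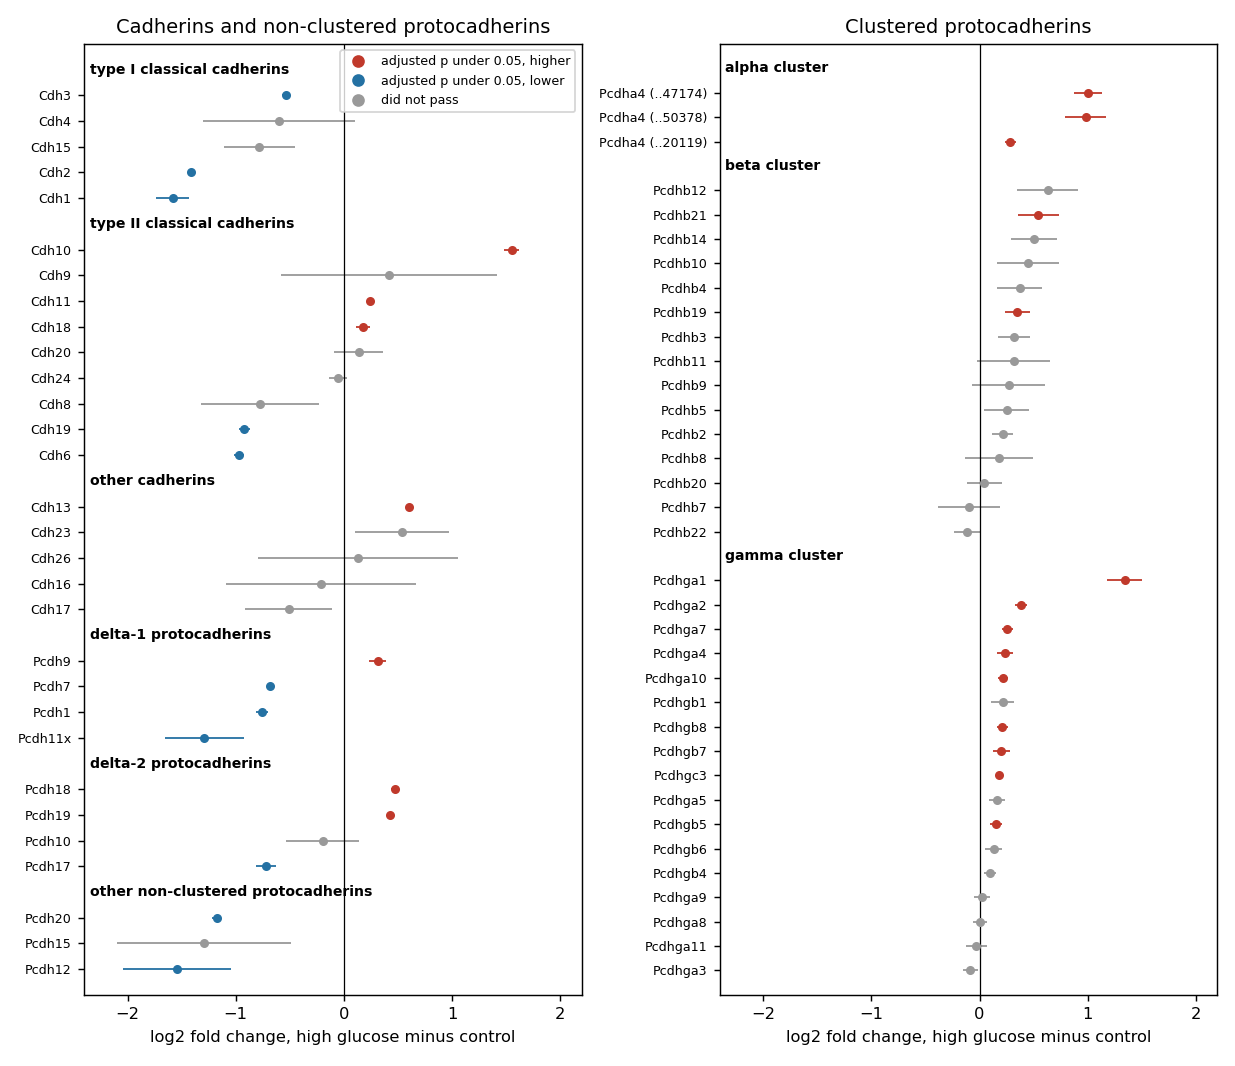
Log2 fold change, high glucose minus control, of all 65 members by class, cadherins and non-clustered protocadherins on the left and clustered protocadherins on the right. Points are limma estimates from 3 samples a group and lines are their standard errors; the type I cadherins lie to the left of 0, and no clustered gene that passed lies to the left of 0.

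Among the type I classical cadherins, 3 of 5 (60%) were lower and 0 higher in limma, where 25.5% of all genes were lower and 24.9% higher. At an unadjusted p under 0.05 the type I counts were 4 and 0. Their summed level was 177, 174 and 182 CPM in the high-glucose samples, against 361, 353 and 349 CPM in the control samples. The median log2 fold change was -0.78.

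Cdh2 (ENSRNOG00000015602), N-cadherin, the adhesion receptor of neural and mesenchymal cells, had 6.25, 6.30 and 6.29 log2 CPM in the high-glucose samples, against 7.71, 7.66 and 7.71 log2 CPM in the control samples. The groups were far apart compared with their spread, and Cdh2 was 2.66-fold lower (log2 fold change -1.41 ± 0.03, adjusted p = 1.16e-13). Cdh1 (ENSRNOG00000020151), E-cadherin of epithelia, had 0.83, 0.63 and 1.11 log2 CPM in high glucose, against 2.52, 2.51 and 2.29 log2 CPM in control. It was 3.00-fold lower on 174 reads in the high-glucose samples together and 479 in the control samples together (-1.58 ± 0.16, adjusted p = 1.53e-06), and the groups did not overlap. Of 6 epithelial and perineurial markers 2 (33.3%) were higher and 1 (16.7%) lower, where 24.9% of all genes were higher and 25.5% lower. The markers had sums of 118 to 119.8 CPM in high glucose and 73.7 to 75.2 CPM in control. Nearly all of this sum was the glucose transporter Slc2a1 (6.77 log2 CPM in high glucose and 6.09 log2 CPM in control, means of 3 samples). Epcam, the epithelial surface marker, drew 2 reads in each group, and the part of such cells in the Cdh1 values was not tested.

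Cdh3 (ENSRNOG00000020129), P-cadherin, had 6.62, 6.54 and 6.65 log2 CPM in high glucose, against 7.18, 7.17 and 7.07 log2 CPM in control. It was lower by a smaller factor, 1.45-fold, without overlap (-0.53 ± 0.04, adjusted p = 3.76e-08). Cdh15, M-cadherin of muscle, had -0.70, -1.45 and -0.16 log2 CPM in high glucose, against -0.12, 0.07 and 0.09 log2 CPM in control. Every high-glucose sample lay below every control sample, but the difference did not pass (-0.78 ± 0.33, adjusted p = 0.0628). After quantile normalization its adjusted p was 0.0434, and without high-glucose sample 3 it was 0.0172. Cdh4, R-cadherin, rested on 13 reads in high glucose and 18 in control and did not pass (-0.60 ± 0.70, adjusted p = 0.512).

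The type II cadherins moved in both directions. Of 9 measured, 3 (33.3%) were higher, 2 (22.2%) were lower and 4 did not pass, where 24.9% of all genes were higher and 25.5% lower. The summed level of the type II cadherins was 1349, 1352 and 1375 CPM in high glucose, against 1174, 1182 and 1197 CPM in control. Cdh11 gave most of the reads behind this sum.

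Cdh10 (ENSRNOG00000009771), which is best known from the brain, had 4.39, 4.53 and 4.54 log2 CPM in the high-glucose samples, against 2.99, 2.94 and 2.87 log2 CPM in the control samples. With no overlap, it was 2.93-fold higher (1.55 ± 0.07, adjusted p = 4.7e-10), the largest rise among the 65 members. Cdh6 (ENSRNOG00000013535), K-cadherin of kidney and neural crest, had 4.52, 4.54 and 4.67 log2 CPM in high glucose, against 5.59, 5.55 and 5.51 log2 CPM in control. It was 1.96-fold lower, again without overlap (-0.97 ± 0.05, adjusted p = 1.24e-09). The difference between both genes within a library, which no scaling of libraries can alter, was -0.14, -0.01 and -0.13 log2 units for Cdh10 minus Cdh6 in high glucose, against -2.60, -2.61 and -2.64 in control. Within libraries the pair thus shifted by 2.52 log2 units.

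Among genes named Cdh with a number, Cdh6, Cdh9, Cdh10, Cdh12 and Cdh18 stand in this order on chromosome 2 in the RefSeq annotation. Other genes between them were not looked at. Of this row, Cdh6 was lower, Cdh10 and Cdh18 were higher, and Cdh9 drew 3 reads in high glucose and 2 in control. Promoter stretches of the oppositely moving pair are shown with a shared string in capitals, Cdh10 on the plus strand and Cdh6 on the minus strand of GRCr8.
Cdh10 at chr2:70355439-70355487: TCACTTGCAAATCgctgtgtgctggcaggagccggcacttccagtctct
Cdh6 at chr2:63952300-63952348: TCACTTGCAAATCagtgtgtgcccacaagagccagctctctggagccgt
TCACTTGCAAATC is the longest run that both promoters share, at 13 bases. Searched on both strands it stood in 2 of 33469 promoters, or 0.00598%, those of Cdh10 and Cdh6. In Cdh10 it begins 250 bases before the annotated start and in Cdh6 61 bases before it, and 33 of the 49 bases shown are identical. The string was picked by comparing these promoters, and the match is a description.

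Cdh19 (ENSRNOG00000029841), a cadherin of the Schwann cell lineage, had 4.09, 4.05 and 4.08 log2 CPM in high glucose, against 5.06, 4.98 and 4.94 log2 CPM in control. It was 1.89-fold lower without overlap (-0.92 ± 0.05, adjusted p = 3.37e-09). Of 11 measured Schwann cell markers, 10 (90.9%) were lower and 0 higher in limma, also at an unadjusted p under 0.05, where 25.5% of all genes passed as lower. The markers had sums of 399 to 436 CPM in high glucose and 632 to 666 CPM in control. Their median log2 fold change was -0.64, and the markers' part in the Cdh19 values was not tested. Cdh11 (ENSRNOG00000013481), a cadherin of osteoblasts and other mesenchymal cells, had 10.30, 10.30 and 10.33 log2 CPM in high glucose, against 10.05, 10.07 and 10.09 log2 CPM in control. This 1.18-fold rise was small but larger than the spread (0.24 ± 0.02, adjusted p = 5.64e-08).

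Cdh18, a cadherin of the central nervous system, had 4.01, 4.16 and 3.99 log2 CPM in high glucose, against 3.90, 3.80 and 3.92 log2 CPM in control. Without overlap, it passed as higher by 1.13-fold (0.18 ± 0.06, adjusted p = 0.0328), and the call was not stable. Without high-glucose sample 2 the adjusted p was 0.144, without control sample 1 it was 0.0510, without control sample 2 it was 0.121 and with a single variance prior it was 0.0689. Cdh24 (-0.06 ± 0.08, adjusted p = 0.607) and Cdh20 (0.14 ± 0.23, adjusted p = 0.653) did not pass. Neither did Cdh8 on 7 reads in high glucose and 12 in control.

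Among the other cadherins, 1 of 5 (20%) passed, as higher, where 24.9% of all genes were higher. Cdh13 (ENSRNOG00000014371), T-cadherin, which lacks a cytoplasmic tail, is anchored by a lipid and binds adiponectin, had 8.58, 8.54 and 8.64 log2 CPM in high glucose, against 7.99, 7.95 and 8.00 log2 CPM in control. It was 1.52-fold higher without overlap (0.61 ± 0.03, adjusted p = 3.52e-10). Within libraries, Cdh13 minus Cdh2 was 2.32, 2.24 and 2.34 log2 units in high glucose, against 0.28, 0.28 and 0.29 in control, a shift of 2.02. The others were scarce: Cdh23 of the hair-cell tip link drew 38 reads in high glucose and 24 in control (0.54 ± 0.43, adjusted p = 0.333), and Cdh17 of liver and intestine had 25 in high glucose and 32 in control (-0.51 ± 0.40, adjusted p = 0.317). Cdh16 and Cdh26 had at most 7 reads in either group.

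**Figure D2:**
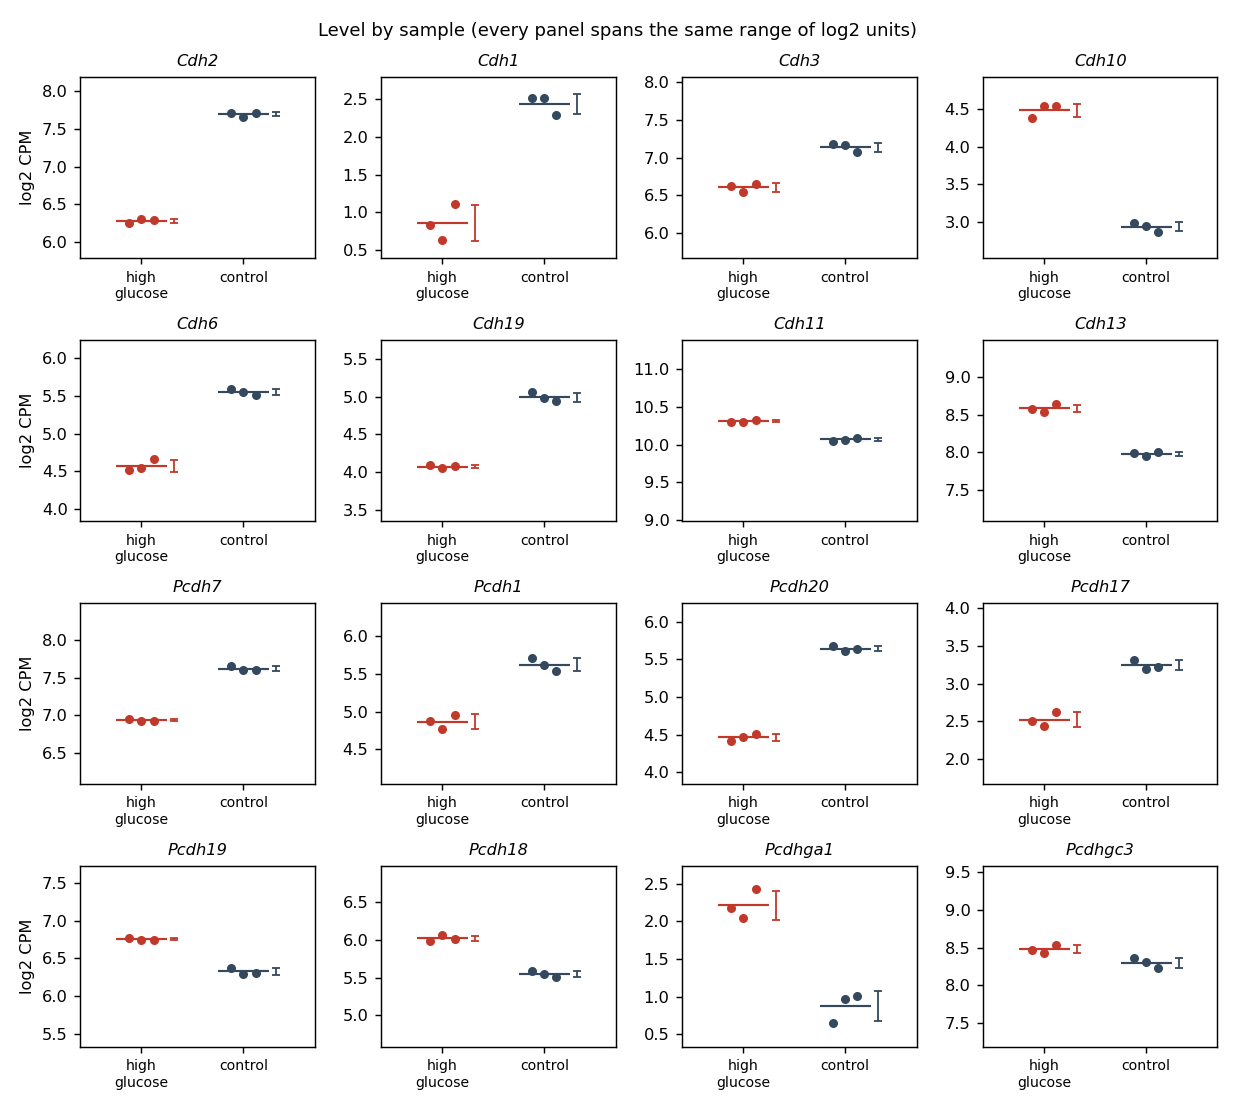
Log2 CPM of 16 members in the 3 high-glucose samples and the 3 control samples, each panel spanning the same number of log2 units. Points are samples, horizontal lines are group means and bars show 1 SD; in each of the 16 panels the groups do not overlap, with Cdh2, Cdh1, Cdh3, Cdh6 and Cdh19 lower and Cdh10, Cdh11 and Cdh13 higher in high glucose.

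Protocadherins outside the clusters were mostly lower: 6 of 11 (54.5%) passed as lower and 3 (27.3%) as higher, and the median log2 fold change was -0.72. Over all genes 25.5% passed as lower and 24.9% as higher, so the higher share was near that of all genes. The delta-1 group, which has a longer tail with a site for protein phosphatase 1, held 3 of the lower genes. Its summed level was 166, 161 and 165 CPM in high glucose, against 266, 253 and 250.2 CPM in control. Mural and smooth muscle markers were also mostly lower, 6 of 10 against 3 higher, with sums of 8345 to 8414 CPM in high glucose and 14798 to 14944 CPM in control, and their part in these values was not tested.

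Pcdh7 (ENSRNOG00000012367), an axonal adhesion protein in frog, had 6.95, 6.93 and 6.93 log2 CPM in high glucose, against 7.66, 7.60 and 7.60 log2 CPM in control. It was 1.6-fold lower with narrow spread in both groups (-0.68 ± 0.02, adjusted p = 7.45e-11). Pcdh1 (ENSRNOG00000060410), known from airway epithelium, had 4.88, 4.77 and 4.96 log2 CPM in high glucose, against 5.72, 5.61 and 5.54 log2 CPM in control. It was 1.69-fold lower without overlap (-0.76 ± 0.06, adjusted p = 8.08e-08). Pcdh9 (ENSRNOG00000038068), a protocadherin of the developing brain, had 3.66, 3.58 and 3.57 log2 CPM in high glucose, against 3.44, 3.18 and 3.25 log2 CPM in control. Unlike the others of its group it was higher, by 1.24-fold (0.31 ± 0.08, adjusted p = 0.00541). Pcdh11x, encoded on the X chromosome, had 7, 6 and 7 reads in high glucose, against 16, 20 and 12 reads in control, again without overlap, and passed as 2.44-fold lower (-1.29 ± 0.36, adjusted p = 0.00946).

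The delta-2 protocadherins, whose tails bind the WAVE complex that drives actin branching, went apart. Of 4, 2 (50%) were higher and 1 (25%) was lower, where 24.9% of all genes were higher and 25.5% lower. Pcdh19 (ENSRNOG00000003929), the gene of a human epilepsy, had 6.77, 6.74 and 6.75 log2 CPM in high glucose, against 6.38, 6.29 and 6.31 log2 CPM in control, and was 1.35-fold higher (0.43 ± 0.03, adjusted p = 4.96e-08). Pcdh18 (ENSRNOG00000009949) had 5.99, 6.06 and 6.01 log2 CPM in high glucose, against 5.58, 5.55 and 5.50 log2 CPM in control. Both genes were higher in every high-glucose sample, Pcdh18 by 1.39-fold (0.47 ± 0.04, adjusted p = 1.02e-07). Pcdh17 (ENSRNOG00000008970), which guides axons in mouse, had 2.51, 2.44 and 2.63 log2 CPM in high glucose, against 3.32, 3.19 and 3.23 log2 CPM in control. It was 1.65-fold lower without overlap (-0.72 ± 0.09, adjusted p = 1.48e-05), and within libraries Pcdh19 minus Pcdh17 shifted by 1.15 log2 units. Pcdh10 did not pass on 60 reads in high glucose and 66 in control (-0.20 ± 0.34, adjusted p = 0.661).

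Of the remaining non-clustered protocadherins, Pcdh20 (ENSRNOG00000013306) had 4.42, 4.47 and 4.50 log2 CPM in high glucose, against 5.68, 5.61 and 5.64 log2 CPM in control. It was 2.26-fold lower without overlap (-1.18 ± 0.04, adjusted p = 5.42e-11). Pcdh12, a protocadherin of endothelium, had 3, 3 and 2 reads in high glucose, against 5, 11 and 9 reads in control. It passed as lower (-1.54 ± 0.50, adjusted p = 0.0198), and not without high-glucose sample 3 (0.0570), control sample 2 (0.0814) or control sample 3 (0.0640). Of 6 endothelial markers measured, 0 passed in limma, where 50.5% of all genes passed. At an unadjusted p under 0.05 in limma, 1 marker was higher and 1 lower. The markers had sums of 19.8 to 20.6 CPM in high glucose and 19.3 to 22.0 CPM in control. Pcdh15, the tip-link partner of Cdh23, drew 2 reads in high glucose and 6 in control and did not pass (adjusted p = 0.204).

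The clustered protocadherins were higher or did not pass. Of 35 rows, 14 passed as higher, which is 40.0% against 24.9% of all genes, and 0 passed as lower. At an unadjusted p under 0.05 limma gave 18 higher and 0 lower. The log2 fold change was above 0 for 31 rows and below 0 for 4, with a median of 0.22. For 18 of the 35 rows every high-glucose sample lay above every control sample, and for 1 they all lay below. Over all genes this held for 28.7% above and 28.9% below. With no scaling factor 22 rows were higher, without high-glucose sample 3 there were 10, and 0 were lower in each of the 14 alternatives. Isoforms of the alpha and gamma clusters share their constant exons, and beta genes resemble each other in sequence. The settings for shared reads are not given in the sources used here, so reads of single isoforms may be split uncertainly.

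All 3 rows of the alpha cluster, each with the symbol Pcdha4, were higher, where 24.9% of all genes were higher. The row ENSRNOG00000047174 had 2.51, 2.65 and 2.41 log2 CPM in high glucose, against 1.36, 1.69 and 1.51 log2 CPM in control, and was 2.00-fold higher (1.00 ± 0.13, adjusted p = 2.1e-05). ENSRNOG00000050378 had 1.41, 1.53 and 1.52 log2 CPM in high glucose, against 0.23, 0.43 and 0.86 log2 CPM in control (0.98 ± 0.19, adjusted p = 0.000776). The row with the most reads, ENSRNOG00000020119, had 4.70, 4.69 and 4.61 log2 CPM in high glucose, against 4.38, 4.37 and 4.41 log2 CPM in control. Its rise was smaller, 1.22-fold (0.29 ± 0.05, adjusted p = 0.000228), and none of the rows overlapped between groups. The RefSeq table at hand folds the alpha isoforms into the entry Pcdha4 with 14 synonyms that start with Pcdha, so which variable exons the rows stand for was not resolved.

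In the beta cluster 2 of 15 rows (13.3%) passed, both as higher, where 24.9% of all genes were higher. Of the beta rows 13 had a log2 fold change above 0. The summed level was 35.2, 33.5 and 35.8 CPM in high glucose, against 28.3, 29.2 and 30.8 CPM in control, so the groups did not overlap in the sum. Pcdhb19 (ENSRNOG00000039469) had 2.44, 2.49 and 2.60 log2 CPM in high glucose, against 1.98, 2.23 and 2.28 log2 CPM in control (0.35 ± 0.12, adjusted p = 0.0214). Pcdhb21 (ENSRNOG00000033479) had 1.13, 0.77 and 1.11 log2 CPM in high glucose, against 0.39, 0.53 and 0.45 log2 CPM in control (0.54 ± 0.19, adjusted p = 0.0279). Neither gene overlapped between groups, yet both calls were lost without high-glucose sample 3 (0.0820 for Pcdhb19 and 0.0907 for Pcdhb21) or without control sample 1 (0.0851 and 0.0638), and that of Pcdhb21 also without high-glucose sample 1 (0.0983), without control sample 3 (0.0546) and after quantile normalization (0.0514). The deepest beta rows that did not pass were Pcdhb2 (0.21 ± 0.10, adjusted p = 0.0807) and Pcdhb22 (-0.11 ± 0.12, adjusted p = 0.471). The other 11 ran from -0.10 for Pcdhb7 to 0.63 for Pcdhb12.

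In the gamma cluster 9 of 17 rows (52.9%) passed, all as higher, where 24.9% of all genes were higher. Of the gamma rows 15 had a log2 fold change above 0. The summed level was 619, 601 and 631 CPM in high glucose, against 563, 547 and 526 CPM in control. Pcdhga1 (ENSRNOG00000039463), whose variable exon opens the cluster, had 2.17, 2.05 and 2.43 log2 CPM in high glucose, against 0.65, 0.97 and 1.01 log2 CPM in control. It was 2.53-fold higher on 447 reads in high glucose and 162 in control (1.34 ± 0.16, adjusted p = 1.02e-05), and no other gamma row that passed differed by as much as 1.5-fold. Pcdhgc3 (ENSRNOG00000019799), a C-type isoform at the other end, had 8.47, 8.43 and 8.54 log2 CPM in high glucose, against 8.36, 8.30 and 8.23 log2 CPM in control. With 34121 reads in high glucose and 27757 in control it held most of the gamma reads, and its 1.13-fold rise exceeded the spread (0.18 ± 0.03, adjusted p = 0.00034). Pcdhga1 minus Pcdhgc3 within libraries was -6.30, -6.38 and -6.11 log2 units in high glucose, against -7.71, -7.33 and -7.22 in control, a shift of 1.16.

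Pcdhga2 (ENSRNOG00000034126), the next variable exon after Pcdhga1, had 4.26, 4.21 and 4.16 log2 CPM in high glucose, against 3.78, 3.86 and 3.84 log2 CPM in control, a 1.30-fold rise without overlap (0.38 ± 0.06, adjusted p = 8.31e-05). Pcdhga7 (ENSRNOG00000027290) had 4.58, 4.52 and 4.52 log2 CPM in high glucose, against 4.30, 4.22 and 4.32 log2 CPM in control. Pcdhga10 (ENSRNOG00000027253) had 5.13, 5.01 and 5.10 log2 CPM in high glucose, against 4.91, 4.83 and 4.82 log2 CPM in control. Both were higher by under 1.5-fold in every high-glucose sample, Pcdhga7 by 0.26 ± 0.05 (adjusted p = 0.000825) and Pcdhga10 by 0.22 ± 0.05 (adjusted p = 0.00139) on the log2 scale. The other rows that passed were Pcdhgb8 (0.21, adjusted p = 0.00264), Pcdhga4 (0.24, adjusted p = 0.0156), Pcdhgb5 (0.15, adjusted p = 0.0274) and Pcdhgb7 (0.20, adjusted p = 0.0486). Pcdhgb7 overlapped between groups. The call of Pcdhga4 was lost without high-glucose sample 1 (0.0540) or 3 (0.0535). That of Pcdhgb5 was lost without high-glucose samples 2 (0.0526) or 3 (0.0949) or control samples 2 (0.0526) or 3 (0.108), and with a single variance prior (0.0562). That of Pcdhgb7 was lost without high-glucose samples 1 (0.189) or 3 (0.113) or control samples 1 (0.131) or 3 (0.109). It was also lost after quantile normalization (0.0944), with a prior of 2 reads (0.0518), with voom weights (0.0511) and with a single variance prior (0.0847). The deepest gamma rows that did not pass, Pcdhgb4 (0.09, adjusted p = 0.166) and Pcdhgb6 (0.13, adjusted p = 0.187), passed with no scaling factor (0.00562 and 0.0151), and the 6 others ran from -0.09 for Pcdhga3 to 0.21 for Pcdhgb1.

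**Figure D3:**
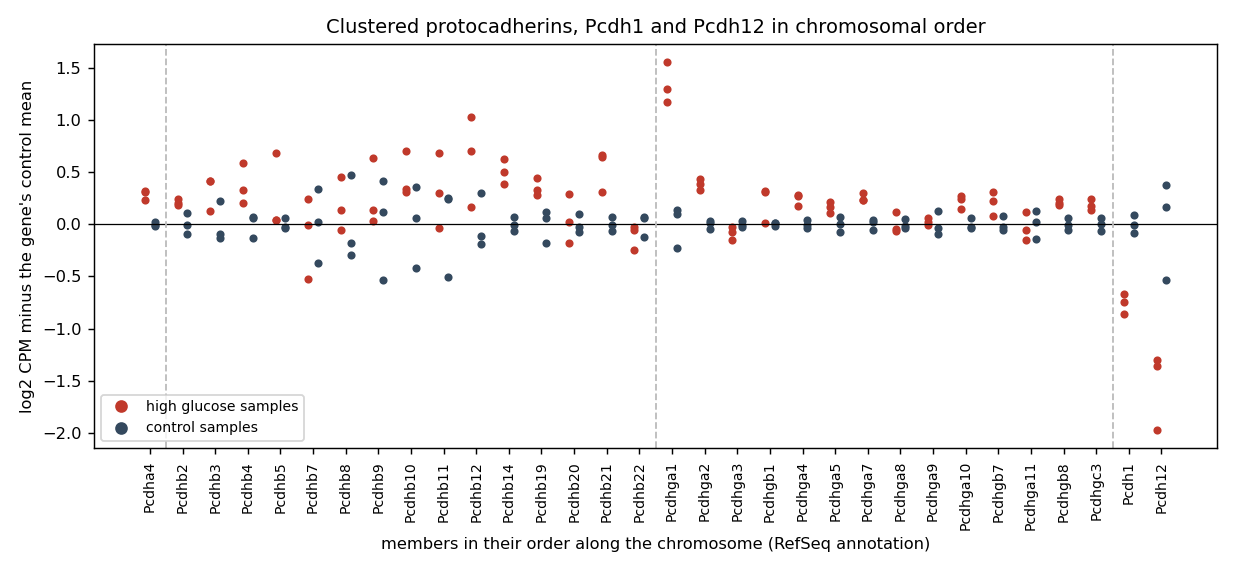
Log2 CPM of each sample minus the gene's control mean, for clustered members that RefSeq places in order, followed by Pcdh1 and Pcdh12 on the same chromosome; Pcdha4 is the row with the most reads. Red points are the 3 high-glucose samples and dark points the 3 control samples; Pcdhga1 stands above its neighbours, and Pcdh1 and Pcdh12 lie below 0.

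The order along chromosome 18 runs from Pcdha4 through the beta genes and the gamma genes to Pcdh1 and Pcdh12, and holds 15 beta and 14 gamma rows. The members past the end of the gamma cluster, Pcdh1 and the scarce Pcdh12, were lower. Genes other than members were not placed in this order, and the member Cdh2 was left out of it. Ctcf, whose protein binds promoters of clustered protocadherins, was itself higher (0.20 ± 0.04, adjusted p = 0.000537). Of 16 measured genes of CTCF, cohesin and silencers of the clusters, 7 (43.75%) were higher and 3 (18.75%) lower (median 0.04), where 24.9% of all genes were higher and 25.5% lower. Core ring genes of cohesin did not pass, namely Rad21 (0.03, adjusted p = 0.388), Smc1a (-0.03, adjusted p = 0.417) and Smc3 (0.05, adjusted p = 0.271). Of the cohesin subunits and partners that were higher, those with the smallest p were Stag2 (0.22 ± 0.03, adjusted p = 9.94e-06), Pds5b (0.20 ± 0.03, adjusted p = 1.84e-05) and Stag1 (0.25 ± 0.03, adjusted p = 3.24e-05), and the cohesin loaders Nipbl (0.13, adjusted p = 0.00133) and Mau2 (0.12, adjusted p = 0.0171) were higher too. The Mau2 call was lost without high-glucose sample 2 (0.0768), control sample 2 (0.0649) or control sample 3 (0.0599) and with a single variance prior (0.0909). Those that fell were the DNA methyltransferases Dnmt1 (-0.19 ± 0.03, adjusted p = 4.68e-05) and Dnmt3a (-0.18 ± 0.03, adjusted p = 0.000226) and the silencer Smchd1 (-0.09 ± 0.02, adjusted p = 0.00809). With no scaling factor Dnmt3a (adjusted p = 0.0808) and Smchd1 (0.404) did not pass, nor did Smchd1 after quantile normalization (0.0914) or with a single variance prior (0.0559).

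Genes of the catenin and adherens junction lists were more often lower than higher, where 25.5% of all genes were lower and 24.9% higher. Of 12 measured catenins and armadillo proteins, 6 (50%) were lower and 2 (16.7%) higher (median -0.18). Ctnnd1, p120-catenin, which keeps cadherins at the surface, was lower (-0.30 ± 0.02, adjusted p = 1.07e-08), as were Pkp1 (-0.42 ± 0.03, adjusted p = 3.7e-08) and Ctnna1, alpha-catenin (-0.29 ± 0.02, adjusted p = 6.58e-08). Jup, plakoglobin (0.22 ± 0.03, adjusted p = 8.88e-05), and Pkp4 (0.17 ± 0.04, adjusted p = 0.00117) were higher. Ctnnb1, beta-catenin, did not pass (-0.02 ± 0.03, adjusted p = 0.691), except with no scaling factor (0.0240). Of 20 scaffold proteins and nectins of the adherens junction, 13 (65%) were lower and 3 (15%) higher (median -0.35). Plekha7, which ties p120-catenin to microtubules, was 3.18-fold lower (-1.67 ± 0.05, adjusted p = 4.01e-12), and Vcl, vinculin (-0.57 ± 0.01, adjusted p = 2.63e-12), and Afdn, afadin (-0.80 ± 0.03, adjusted p = 1.6e-10), were lower too. Against this direction, Shroom3, an organiser of apical actin, was 2.46-fold higher (1.30 ± 0.08, adjusted p = 2.55e-08), and Ptprf (0.20 ± 0.03, adjusted p = 2.32e-05) and Magi3 (0.15 ± 0.03, adjusted p = 0.00245) were higher. Among the lower calls, that of Lima1 (-0.06) was lost with a single variance prior (adjusted p = 0.179) and without control sample 2 (0.117). That of Magi2 (-0.43) was lost with no scaling factor (0.0579) and without control sample 1 (0.0650).

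Proteases that shed cadherins and subunits of gamma-secretase were mostly higher, 7 of 9 (77.8%) against 1 lower (11.1%), where 24.9% of all genes were higher and 25.5% lower. They included Psenen (0.41 ± 0.04, adjusted p = 4.49e-07), Adam15 (0.38 ± 0.04, adjusted p = 2.22e-06) and Adam9 (0.25 ± 0.03, adjusted p = 3.98e-06), while Psen2 was lower (-0.38 ± 0.10, adjusted p = 0.00549). With a single variance prior the calls of Aph1a (adjusted p = 0.0794) and Adam10 (0.0771) as higher were lost. That of Aph1a was also lost without high-glucose sample 1 (0.0560) or 3 (0.0773) or control sample 1 (0.0974). Of 7 transcription factors known as repressors of Cdh1, 5 (71.4%) were higher and 1 (14.3%) was lower. Snai2 was 1.74-fold higher (0.80 ± 0.04, adjusted p = 9.34e-10), Zeb1 (0.36 ± 0.03, adjusted p = 7.01e-08) and Zeb2 (0.20 ± 0.03, adjusted p = 2.3e-05) were higher, and Twist2 was lower (-0.52 ± 0.10, adjusted p = 0.000509). The call of Snai1 as higher (0.15) was lost with a single variance prior (adjusted p = 0.0673). It was also lost without high-glucose sample 1 (0.0771) or 3 (0.0899) or control sample 3 (0.0958). Of 11 genes of the WAVE complex and focal kinases 2 (18.2%) were higher, Ptk2 (0.20 ± 0.02, adjusted p = 9.9e-06) and Wasf1 (0.26 ± 0.07, adjusted p = 0.00706). Another 5 (45.5%) were lower, led by Nckap1 (-0.25 ± 0.02, adjusted p = 2.49e-07), Abi1 (-0.25 ± 0.03, adjusted p = 2.89e-06) and Ptk2b (-0.41 ± 0.05, adjusted p = 5.57e-06). The call of Cyfip1 as lower (-0.08) was lost after quantile normalization (adjusted p = 0.860), with no scaling factor (0.256) and with a single variance prior (0.122).

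Relatives outside the rule also went both ways. Of 16 atypical cadherins 6 (37.5%) were higher and 5 (31.25%) lower, where 24.9% of all genes were higher and 25.5% lower. The calls of Clstn1 as lower (-0.07) and Cdhr2 as higher (0.36) were lost with a single variance prior (adjusted p = 0.137 and 0.0665). That of Clstn1 was also lost after quantile normalization (0.786) and with no scaling factor (0.0760). The giant cadherin Fat3 was lower (-1.25 ± 0.04, adjusted p = 2.6e-11), as were Celsr2, a planar polarity receptor (-0.89 ± 0.04, adjusted p = 3.32e-10), and Fat1 (-0.25 ± 0.02, adjusted p = 4.41e-08). Higher were Cdhr5 (1.37 ± 0.19, adjusted p = 4.73e-05), Celsr3 (0.81 ± 0.14, adjusted p = 0.000233) and Cdhr4 (adjusted p = 5.67e-05). Cdhr4 drew 35 reads in high glucose and 0 in control, at least 10.8-fold more against a floor of 3 reads over the control group. With reads in 3 samples, the fewest any gene had, Cdhr4 was kept only through the high-glucose group, so its p-value is not support. Of 6 desmosomal cadherins and plakins 3 (50%) were lower and 2 (33.3%) higher. Dsc2 was lower (-1.55 ± 0.21, adjusted p = 3.92e-05), and the calls of Dsc3 (-1.33 ± 0.39, adjusted p = 0.0117) and Dsg2 (-1.77 ± 0.56, adjusted p = 0.0169) were lost without control sample 2 (0.0554 and 0.0558), and that of Dsg2 also without high-glucose sample 3 (0.0560). Ppl (0.89 ± 0.24, adjusted p = 0.00779) and Evpl (1.04 ± 0.39, adjusted p = 0.0404) were higher, Evpl not after quantile normalization (0.0784) nor without any 1 sample other than control sample 3 (0.0562 to 0.137).

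**Figure D4:**
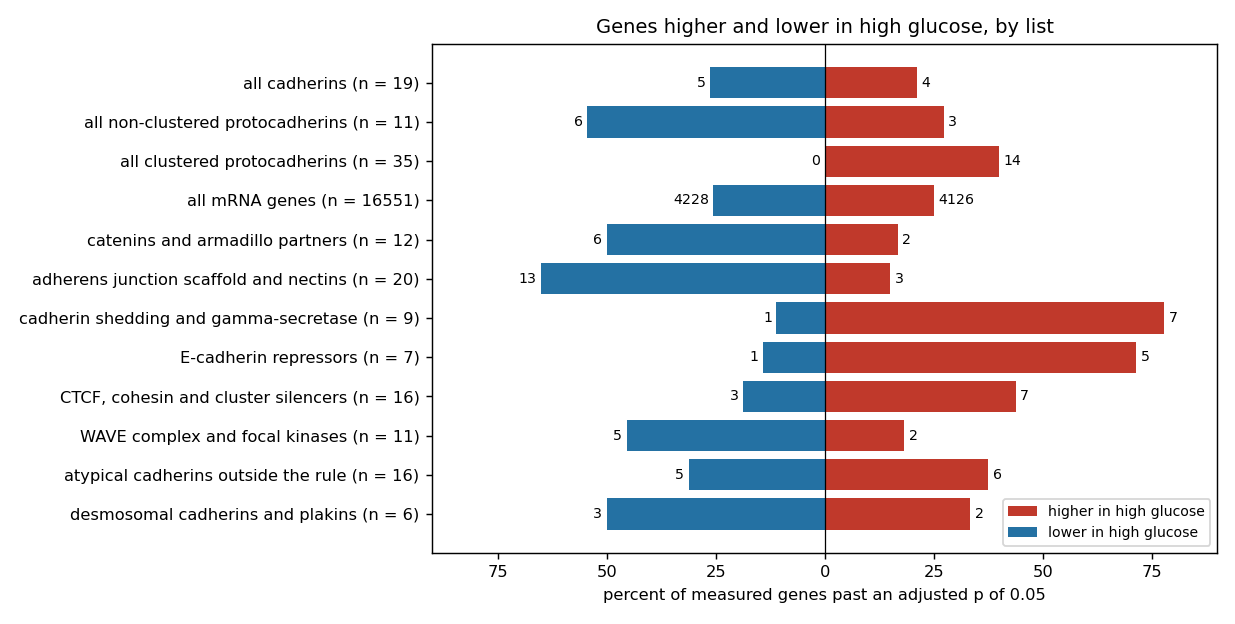
Percent of measured genes past an adjusted p of 0.05 in limma, lower in high glucose to the left of 0 and higher to the right, for the member families, all mRNA genes and the lists of partners. Numbers at the bars count genes; the clustered protocadherins have 14 higher and 0 lower, and the adherens junction list has 3 higher and 13 lower.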

How the data were processed

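RNA of 3 high-glucose and 3 control samples had been sequenced. The submitters' processing notes list fastp 0.19.4, HISAT2 2.1.0 and featureCounts 1.6.0, with Rnor_6.0 as the genome build. What each tool was used for, the annotation and the strand of counting are not given in the sources used here. The authors deposited a log2 value per gene and sample, voom-normalized per the file names. Values are log2 of CPM, that is of reads plus 0.5 scaled to 1000000 of an adjusted library size, and 100% of them gave back reads within 0.01 of a whole number. The scaling factors were 1.03 to 1.05 in high glucose and 0.959 to 0.964 in control, so small changes depend on them. No gene had reads in fewer than 3 samples, and genes seen in fewer are not analysed here. A second table of 1012 lncRNA rows holds 0 members and was not used here. A chi-square per gene of 2.93 to 4.64 between samples of the same group, against 82.8 to 89.2 between groups, showed no sample to be a copy of another.

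Genes were tested in limma 3.58.1 (R 4.3.3). The model had group as its term and a mean-variance trend, took the deposited log2 values as they were, and was two-sided. Adjustment was by Benjamini-Hochberg over the 16551 genes, with a threshold of 0.05. Fold changes understate those of scarce genes because of the 0.5 read added. Sums of CPM were formed from the recovered reads and got no test, and levels were not compared between genes, since lengths were not at hand. For each class, values are given by sample for up to 5 members that passed with the smallest p, with up to 2 of the deepest that did not. From each list of partners up to 3 genes per direction are named. Ctcf, Ctnnb1, single markers and the remaining members were named after their values were seen. The members and lists were chosen with earlier results of these data known. Promoters came from RefSeq (GRCr8), which was also used for gene order. Alternatives were other scalings, weights, variance priors, filters on low values, a prior of 2 reads, leaving out each sample and a replicate block. Plots were made in Python 3.11.15 with matplotlib 3.10.9.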

Additional observations from a re-analysis of the deposited data

How the results depend on the processing

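The counts of members were 21 higher and 11 lower, and ran from 19 higher and 12 lower after quantile normalization to 29 and 11 with no scaling factor. Leaving out a sample gave 17 to 21 higher and 10 to 11 lower. Without the scaling factor the median of all genes moved by 0.114 on the log2 scale, 67.6% of the genes that passed were higher in place of 49.4%, and 22 clustered protocadherins were higher in place of 14, to be read against that shift. Beta genes passing ranged from 0 without high-glucose sample 3 or control sample 1 to 6 with no scaling factor. With low values left out 47 or 49 members were tested, of which 22 were higher and 9 lower. Of 40 members chosen by the naming rule, 5 changed sign, none of which had passed. With no scaling factor Cdh24 had a log2 fold change of 0.058 and Pcdhb22 of 0.0016. Leaving out a sample took Cdh4 over -1.21 to 0.058, Cdh20 over -0.0038 to 0.27 and Pcdh10 over -0.52 to 0.10. The cause was not tested. Desmosomal genes passing numbered 2 of 6 without control sample 2 and 3 of 6 without high-glucose sample 3, in place of 5. With low values left out 3 were tested and passed, among them Dsp, which missed the threshold in the main fit (adjusted p = 0.0580). Dsp also passed after quantile normalization (0.0331), with a single variance prior (0.0369) and without control sample 1 (0.0423).

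Deviations of samples with the same replicate number correlated at -0.09, -0.04 and 0.03, against -0.07 to 0.12 for samples with other numbers. These values gave no sign of pairing by number. With 3 samples a group they cannot exclude that same-numbered samples shared an animal or culture. With the replicate block 19 members were higher and 11 lower, and 8052 genes passed in place of 8354. The calls of Cdh18 (adjusted p = 0.0576) and Pcdhgb7 (0.0773) were lost with it. Depth limits Cdh8, Cdh9, Cdh16, Cdh26 and Pcdh15, each with at most 19 reads over all samples.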
